A study of Mus musculus with 18 samples.

Results

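The regions described here are stretches of 100 bases of the mouse genome in which chimeric reads of 10 or more differently named miRNAs were recovered from cultured mouse keratinocytes. The method was CLEAR-CLIP, in which Argonaute 2 is precipitated after crosslinking with UV light and the miRNA it holds is ligated to the RNA it is bound to, so that 1 chimeric read names a miRNA and places its target. Every read of the 3 set 2 pools was placed in a bin of 100 bases by the midpoint of its target part, strand by strand, leaving out mitochondrial targets and a stretch of chromosome 17 that holds ribosomal RNA reads. Of 401713 bins with at least 1 read, 1715 held 10 or more miRNA names, which is 0.427% of the bins. They held 111809 of the 943191 set 2 reads (11.9%). The bins were thus chosen by the number of miRNA names among the set 2 reads, and all set 2 values below are descriptions. The set 1 reads played no part in the choice.

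The groups were as follows. Set 1 compared miR-200 double knockout keratinocytes (DKO, 3 libraries) with keratinocytes that carried K14-Cre only (6 libraries). K14-Cre expresses the recombinase from a keratin 14 promoter, which is active in basal keratinocytes. Set 2 held DKO keratinocytes (3 libraries), keratinocytes with an inducible miR-200 construct given 3 ug/ml doxycycline for 24 hours (induced, 3 libraries) and inducible cells that were not induced (uninduced, 3 libraries), which served as the set 2 control. All cells were grown in low calcium medium, and the labels used here do not say how many animals or clones the lines came from. The reads of a group's libraries come together, without a mark of the library, which hides the spread between replicates. No test between groups was therefore made, and every interval below covers counting error only.

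The pools held 48662 reads in set 1 DKO, 161692 in set 1 control, 210003 in set 2 DKO, 419117 in induced and 314071 in uninduced cells. By the read names each set ran in a lane of its own, so set and sequencing run cannot be told apart. Markers of keratinocytes had 0.4 to 0.697% of the reads of a pool, with none of the 12 genes at 0 in all pools. Of the fibroblast markers 5 of 6 were at 0 in every pool, and of the immune markers 4 of 5, with at most 0.00318% and 0.000239% of a pool. Melanocyte markers reached 0.0129% (2 of 5 at 0) and endothelial markers 0.00371% (1 of 4 at 0). 2 sex-linked readouts bear on some ratios below. Reads on Xist, the RNA of the inactive X chromosome, numbered 22 in set 1 DKO against 1 in set 1 control, and 256 in set 2 DKO against 5 in induced and 3 in uninduced cells. Reads on chromosome Y made up close shares in set 1, 0.0493% (24 reads) in DKO and 0.047% (76) in control. In set 2 they made up 0.0238% (50) in DKO and 0.0818% (343) in induced, against 0.071% (223) in uninduced cells.

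A miRNA guides Argonaute to partly complementary RNA, and pairing of its seed, the stretch of bases 2 to 8, weighs most in the choice of target. miRNAs that share a seed form a family and are expected to bind the same sites. Sites of different miRNAs that lie close together can act jointly on a messenger RNA, and long nuclear RNAs can also be found with Argonaute. In keratinocytes miR-205, miR-203, miR-31 and the miR-200 family are among the best known miRNAs, and miR-200 is known for keeping epithelial character. miRNAs themselves are cut in sequence from long primary transcripts, which fold into hairpins with a 5p and a 3p arm.

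The families found in most of the 1715 bins are shown by their RefSeq mature sequences (GRCm38.p6 annotation), because several names in a bin can be members of 1 family. Capitals mark the seed.
miR-21a-5p: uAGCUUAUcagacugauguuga
let-7a-5p: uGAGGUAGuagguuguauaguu
let-7f-5p: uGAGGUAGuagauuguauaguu
miR-31-5p: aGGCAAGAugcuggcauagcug
miR-27a-3p: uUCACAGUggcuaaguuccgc
miR-125b-5p: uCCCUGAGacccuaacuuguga
miR-23a-3p: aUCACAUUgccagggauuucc
miR-205-5p: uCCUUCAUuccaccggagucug
miR-200c-3p: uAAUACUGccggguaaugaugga
miR-17-5p: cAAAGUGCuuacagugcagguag
miR-16-5p: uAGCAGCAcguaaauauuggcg
The let-7 pair shows 2 names with 1 seed. The second seed of the miR-200 family, carried by miR-141-3p and miR-200a-3p, differs from that of miR-200c-3p.
miR-141-3p: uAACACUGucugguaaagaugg

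One bin can be set beside its sequence, since it lies in a promoter window of the RefSeq table (GRCm38.p6, the build of the files). It was chosen after its values were seen, among 14 of the 1715 bins that meet such a window. The bin lies in Plet1, a gene for a surface protein of progenitor cells in the epidermis, on the plus strand at chr9:50504801-50504900, and the window is that of the antisense gene Plet1os. It held 48 names from 42 families. Of its reads, 6 came from set 1 DKO, 14 from set 1 control, 42 from set 2 DKO, 390 from induced and 292 from uninduced cells. miR-31-5p gave 76.2% of its 724 set 2 reads and miR-182-5p 7.18%. In both lines below the capitals are the match to the seed of the named miRNA.
Plet1 for miR-31-5p: gaacttgtgttTCTTGCCaaaggtattcc
Plet1 for miR-182-5p: acttgtgtttcTTGCCAAaggtattccca
The matches lie at chr9:50504832-50504838 and chr9:50504834-50504840 and overlap. The target parts covered the match in 543 of 552 reads of miR-31-5p (98.4%) and in 51 reads of miR-182-5p (98.1%). Searched on both strands, TCTTGCC was in 4.77% and TTGCCAA in 3.8% of 32851 promoter windows of the same length. In the next bin downstream, miR-31-5p led with 25% of 52 reads. None of its 13 reads there covered the match, but placing reads by their midpoint largely settled this in advance.

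Deeper bins held more names, but depth alone did not make a bin a member. Most bins (329866, 82.1%) held 1 name. The bins with 10 or more had a median of 13 names (highest 202) and a median of 35 set 2 reads (10 to 4578). Of them, 1014 held 10 to 14 names, 317 held 15 to 19, 236 held 20 to 29, 114 held 30 to 49, 33 held 50 to 99 and 1 held 202. Just inside the threshold, the 311 bins with 10 names had a median of 21 reads (10 to 187), and just outside it the 494 bins with 9 names had a median of 16.5 reads (9 to 608). Of bins with 20 or more set 2 reads 46.5% were members, of those with 50 or more 69.5%, with 100 or more 79.6% and with 200 or more 80.6%. A bin of Sltm with 921 reads, 99.7% of them from 1 miRNA, held only 4 names, and a bin of Tomm70a with 608 reads held 9.

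**Figure D1:**
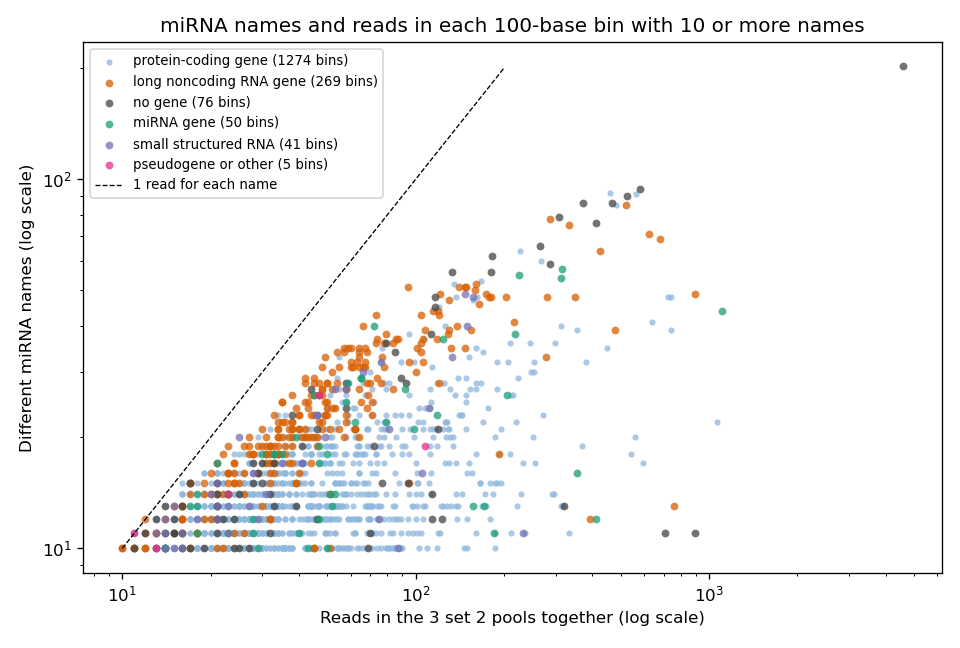
Different miRNA names (vertical, log scale) against reads in the 3 set 2 pools together (horizontal, log scale) for each of the 1715 bins, coloured by the class of gene the bin lies in. Many bins in long noncoding RNA genes lie near the upper edge of the cloud, while the bins opposite to Gm34755 (13 names, 761 reads) and LOC115490435 (12 names, 394 reads) lie at its lower edge, and 1 bin outside annotated genes stands apart with 202 names and 4578 reads.

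Protein-coding genes held 1274 of the bins (74.3%), in 667 genes, and long noncoding RNA genes 269 (15.7%), in 20 genes. Of all bins with a read, 91.6% lay in protein-coding and 1.96% in long noncoding RNA genes, so that 0.346% and 3.42% of these classes' bins were members. The share was highest in miRNA genes, with 50 members (14.9% of their bins), and stood at 5.43% (41 members) in genes of small structured RNAs. Another 76 members lay outside annotated genes and 5 in pseudogenes or other genes. Where the gene's strand was known, 98.9% of the members in protein-coding genes lay on that strand, against 98.2% of all such bins. They lay near the 3′ end of the gene span: the median distance was 1280 bases, against 34100 bases for other bins and 2230 bases for non-member bins with 20 or more reads. Within 3000 bases of the 3′ end lay 71.2% of the members, 15% of other bins and 55.9% of the deep non-member bins. Exons were not used here.

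Members often stood alone. The 1715 bins formed 1180 runs of adjoining bins, and 961 of these were 1 bin long. The longest run had 60 bins and covered chr19:5835801-5841800, all of it in Neat1. Of the 667 protein-coding genes 420 had 1 member bin and 39 had 5 or more.

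Neat1, the RNA scaffold of the nuclear bodies called paraspeckles, was the gene with the most member bins. Of its 208 bins with a read 189 were members, with 10 to 78 names each (median 22). Over these bins 305 names met. The 189 bins had 207 reads in set 1 DKO and 877 in set 1 control, and 2517 in set 2 DKO, 5630 in induced and 4510 in uninduced cells. Relative to the pool totals that was 0.784 times control in set 1 DKO (0.671 to 0.914) and 0.835 times uninduced in set 2 DKO (0.795 to 0.877). The set 1 ratio rested in part on 1 bin, which starts at chr19:5843301 and was led by miR-6409 in set 2. It held 27 of the 207 DKO and 211 of the 877 control reads (ratio 0.425). Whether the other bins were lower in set 1 DKO was not tested. No family dominated the RNA as a whole. miR-31-5p led with 8.9% of its reads, before the miR-16 family with 8.86% and miR-21a-5p with 7.45%. In 103 of the 189 bins the leading family had under 20% of the reads, and in 11 it had 50% or more. The bin at chr19:5842901-5843000 was one of the latter, with 62.7% of 679 reads from the miR-16 family beside 69 names. The bin 200 bases further along the genome (chr19:5843101-5843200) was led by miR-21a-5p with 31.4% of 624 reads and held 71 names. The bin with the most names (78, chr19:5830401-5830500) was led by the miR-125 family with 12.2%.

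Malat1, a long RNA of nuclear speckles, had 56 members among 68 bins, with 11 to 52 names each. They had 70 reads in set 1 DKO and 272 in set 1 control, and 724 in set 2 DKO, 2153 in induced and 1438 in uninduced cells. The set 1 ratio was 0.855 (0.648 to 1.12), and the set 2 DKO ratio was 0.753 (0.688 to 0.824). The miR-16 family gave the most reads over these bins (20.7%), followed by miR-31-5p with 7.95%. Bin by bin, the miR-16 family led only 2 of the 56, and 19 families led at least 1. Of 13 listed nuclear and long noncoding RNAs with a read, 3 had a member bin: these 2 and Xist, with 2 bins. That is 23.1%, against 4.52% of all genes with a set 2 read. The Malat1 bin with the most names (chr19:5797901-5798000, 52 names) held miR-21a-5p and miR-31-5p at 13.7% each.

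**Figure D2:**
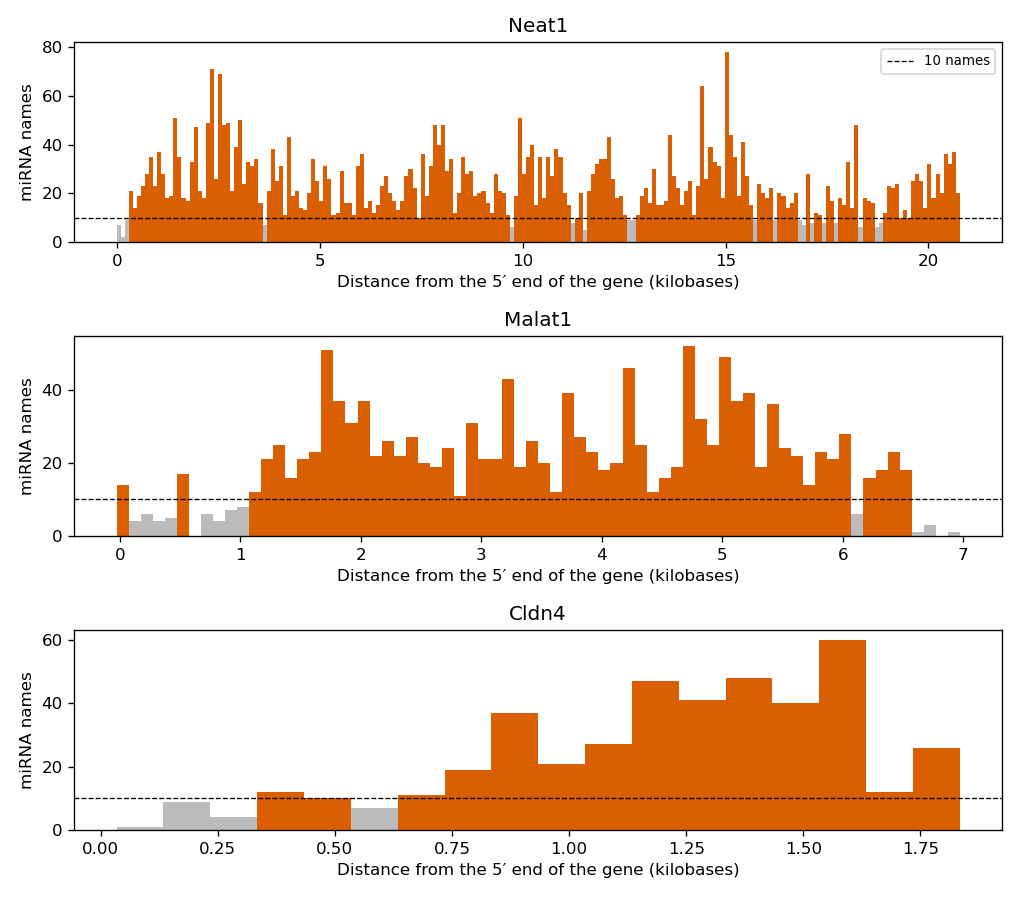
miRNA names in each 100-base bin of set 2 (vertical) by distance from the 5′ end of Neat1, Malat1 and Cldn4 in kilobases (horizontal). Bins with 10 or more names are orange and the others grey, and the dashed line marks 10 names. Members fill nearly all of Neat1, are sparse at the 5′ end of Malat1 and reach 60 names near the 3′ end of Cldn4.

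Among messenger RNAs, Ahnak, which encodes a very large scaffold protein, had the most members (41 of 285 bins). The miR-30 family gave 22% of the reads of these bins, most of them in 1 bin. That bin (chr19:9018601-9018700) had 28 reads in set 1 DKO, 112 in set 1 control, 72 in set 2 DKO, 242 in induced and 228 in uninduced cells, and 96.3% of its 542 set 2 reads were of that family. The 2 bins before it were led by others: chr19:9018501-9018600 by the miR-200c family with 55.7% and chr19:9018401-9018500 by miR-31-5p with 67.9%. Sdc1, a cell surface proteoglycan gene, had 17 members, and the miR-19 family gave the most reads over them (31.6%). Slc38a2, an amino acid transporter gene, had 16, with let-7 first at 14.2%. Scd2, encoding a fatty acid desaturase, had 15, with the miR-27 family first at 34.5%. Rbms1, an RNA-binding protein gene, had 12, with miR-31-5p first at 24.7%. Bin by bin, these families led only 2 of the 17 members of Sdc1 and 3 of the 16 of Slc38a2. They led 2 of the 15 of Scd2 and 1 of the 12 of Rbms1.

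Cldn4, encoding a claudin of tight junctions, was covered over most of its short gene: 14 of its 18 bins were members, and 134 names met there. miR-31-5p gave 45.3% of the 1741 set 2 reads of these bins and led 6 of the 14. The bins had 77 reads in set 1 DKO and 156 in set 1 control, a ratio of 1.64 (1.23 to 2.17). This ratio rested in part on the bin at chr5:134945701-134945800, with 19 of the 77 and 13 of the 156 reads (ratio 4.86). The median set 1 ratio of members was 1.2. In set 2 the 14 bins had 307 reads in DKO, 878 in induced and 556 in uninduced cells, and the DKO ratio was 0.826 (0.716 to 0.951). The bin with the most names (60, chr5:134945301-134945400) was led by the miR-27 family with 30.2%, ahead of miR-31-5p with 15.3%.

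Adhesion holds keratinocytes together through desmosomes and hemidesmosomes. Of 22 listed adhesion genes 15 had a member bin (68.2%), against 777 of all 17207 genes with a set 2 read (4.52%). The 17207 include genes with fewer than 10 reads, which cannot have a member, and the lists were not matched to them for reads. Perp, for example, had 887 set 2 reads. All gene lists used here were drawn up with earlier results of these data known, so their counts are descriptions. Among the genes of desmosomes, Dsc3 had 11 members, Perp 10, Dsg3 7, Dsc2 4 and Dsp 3, and Dsg2, Pkp1 and Pkp2 had none. The leading bin of Perp, a desmosome gene also induced by p53 (chr10:18856001-18856100), had 3 reads in set 1 DKO, 17 in set 1 control, 42 in set 2 DKO, 103 in induced and 70 in uninduced cells. There 3 families shared the reads, miR-21a-5p with 33%, the miR-141 family with 29.3% and the miR-26 family with 23.3%. The leading bin of Col17a1, encoding a collagen of hemidesmosomes, was led by the miR-17 family (61.7% of 253 reads, 30 names). In Dsc2 the miR-29 family had 64% of 86 reads, and in Dsg3 the miR-125 family had 42.2% of 64.

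Of 21 abundant keratinocyte genes with a read, 11 had a member bin (52.4%, against 4.52% of all genes with a set 2 read). Krt5 had 7, Krt14 6 and Krt6a 4, while Eef1a1, Eef2 and Anxa2 had none. The leading Krt14 bin, in the gene of the main type I keratin of basal cells (chr11:100203201-100203300, 36 names), was led by the miR-16 family with 54.1%, and that of Krt6a by let-7 with 56.6%. Of 27 genes listed for messenger RNAs rich in miRNA sites, 13 had a member bin (48.1%, beside the same 4.52%). In Myc, the growth-driving transcription factor gene, let-7 had 75.6% of 209 reads beside 36 names. In Tgfbr2, a TGF-beta receptor gene, the miR-17 family had 63.2% of 212 reads. In Hmga2, the gene of a chromatin protein, the leading family of the bin with 32 names was miR-19 with 18.4% of 76. That bin starts at chr10:120412801, far from the 3′ end of the gene at 120361268. Over the 8 member bins of Hmga2 let-7 came first, with 19.9% of 286 reads, and led 3 of them. In Bach1, encoding a transcription repressor, let-7 had 41% of 61.

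Some genes of the silencing machinery held members. Of 13 listed genes 4 had a member bin (30.8%, against 4.52% of all genes with a set 2 read). Ago1, Ago2, Ago3, Ago4, Drosha, Dgcr8, Xpo5, Tarbp2 and Prkra had none. In Dicer1, the gene of the enzyme that cuts miRNA hairpins, let-7 gave 70% of 130 reads and the miR-125 family 16.2%. Tnrc6a, Tnrc6b and Tnrc6c encode the GW182 proteins that Argonaute recruits. Their leading bins were headed by 3 different families, miR-17 with 32.1% of 78 reads in Tnrc6a, miR-26 with 79.4% of 102 in Tnrc6b and miR-30 with 38.9% of 18 in Tnrc6c.

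Bins with very many names in genes were more mixed than these. A bin on the strand opposite to Nfix (chr8:84765501-84765600, 91 names) had 127 reads in set 1 DKO, 269 in set 1 control, 159 in set 2 DKO, 194 in induced and 209 in uninduced cells, and the leading family, miR-16, had 14.8%. In Cdk8, the kinase gene of the Mediator complex, 85 names met at chr5:146261001-146261100, and the leader, miR-182-5p, had 9.17%. The adjoining bin held 64 names. Opposite to the noncoding Gm36876, 2 bins held 85 and 75 names. Single bins of Cmss1 and Camk1d held 53 and 52. Outside annotated genes the leading bin (chr16:17222401-17222500, plus strand) held 202 names, more than any other bin. It had 101 reads in set 1 DKO, 345 in set 1 control, 879 in set 2 DKO, 1847 in induced and 1852 in uninduced cells, and the miR-125 family gave 26.8% of them in set 2. The next 2 outside genes held 94 names (chr2:22745101-22745200) and 90 (chr6:49236501-49236600). No genome sequence was used here, so repeats and unannotated transcripts were not looked for.

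**Figure D3:**
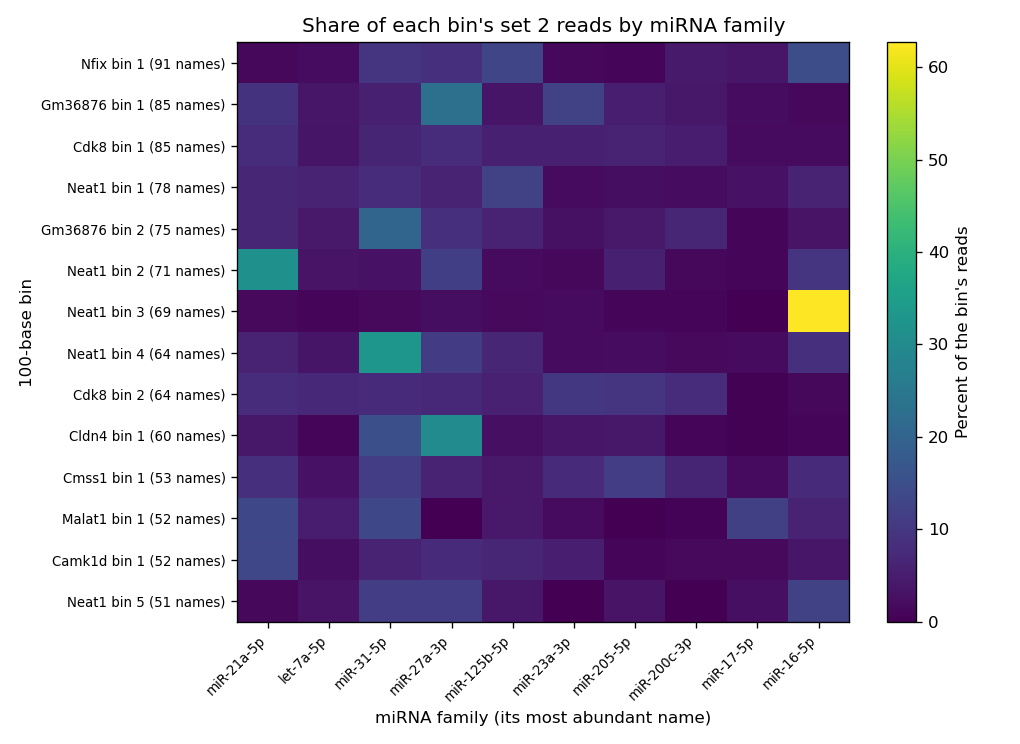
Share of the set 2 reads of a bin (colour, percent) that came from each of the 10 families present in most members (columns), for 14 of the bins in protein-coding and long noncoding RNA genes with the most names (rows, numbered within a gene by the number of names). Most rows are spread over many families, and the third Neat1 bin, with 62.7% from the miR-16 family, is the exception.

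Of 1672 names in set 2, 494 occurred in the 1715 bins, in 409 seed families. miR-21a-5p, an abundant miRNA of many epithelia, was in 1084 bins (63.2%), the let-7 family in 989 (57.7%), miR-31-5p in 965 (56.3%) and the miR-27 family in 935 (54.5%). The miR-125 family was in 895, miR-23 in 814, miR-205-5p in 789, the miR-200c family in 780, miR-17 in 736 and miR-16 in 674. Counted by name, miR-27a-3p was in 862 bins, miR-125b-5p in 815 and miR-23a-3p in 729. They were followed by miR-200c-3p in 567, miR-141-3p in 559, miR-16-5p in 523, miR-24-3p in 518, let-7a-5p in 501 and let-7f-5p in 488, and by miR-183-5p in 473, miR-182-5p in 450 and miR-29a-3p in 448. Presence and lead were not the same. let-7 led 261 bins, the most of any family, and miR-17 led 129, while miR-21a-5p led 95 and miR-205-5p 56. In all 97 families led at least 1 bin.

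Bins ranged from ones led by 1 family to evenly mixed ones. The leading family gave a median of 36.1% of a bin's reads (8.22 to 98.3%). It gave 50% or more in 563 bins (32.8%), 80% or more in 134 and under 20% in 313. Counted by seed, 545 of the bins had fewer than 10 families, with a lowest of 2 and a median of 11. The effective number of families (the inverse Simpson index) had a median of 4.92 and ran from 1.03 to 23.2. Long noncoding RNA genes made up 4.09% of the bins with a leader at 50% or more and 43.8% of those with a leader under 20%. Bins led most by 1 family among those with 50 or more reads included Zfhx3 (let-7, 97.6% of 82), Atp7a (miR-92a family, 96.7% of 332), Sparc (miR-29, 95.7% of 1067), Fem1b (miR-29, 95% of 319) and Adora2b (miR-27, 94.8% of 557). When a name needed 2 or more reads in a bin, 334 of the 1715 bins reached 10.

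Where 2 families shared a bin, the pairs varied. A second family with 20% or more was found in 335 bins (19.5%), in 208 different pairs. let-7 with the miR-200c family was the most frequent (9 bins, among them bins of Gars and Fgfbp1), followed by let-7 with miR-17 and let-7 with miR-27 (8 each) and miR-125 with miR-17 (7, among them Mtus1 and Krt16). miR-182 met the miR-200c family in 5 bins, among them bins of Anxa1 and Itgb1. miR-23 met miR-24, which is made from the same primary transcripts, in 4.

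In the genes of miRNAs the target was often a mature miRNA. A RefSeq hairpin sequence was at hand for 42 of the 50 members in miRNA genes. In 30 of the 42, the part of the hairpin covered by at least 50% of the deepest base's reads was a mature miRNA, within 2 bases at each end. In these 30 bins the gene's own miRNA was the ligated one in a median of 3.89% of the reads, so that mostly 2 different miRNAs were joined. In 11 other bins the median was 87.3%. The covered part in these 11 was not a mature miRNA alone, but it could take one in. In Mir200c it takes in miR-200c-3p, in separate stretches, and in Mirlet7b it takes in let-7b-5p. In Mir16-2 and Mir125a, also in separate stretches, it takes in most of miR-16-5p and miR-125a-5p. The Mir23b bin was not classed, since the table lists 1 mature miRNA of this gene and the covered part was not that one. 4 hairpins show the contrast, with the covered part in capitals.
Mir27a: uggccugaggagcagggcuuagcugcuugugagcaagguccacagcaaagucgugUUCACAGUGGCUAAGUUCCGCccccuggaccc
Mir31: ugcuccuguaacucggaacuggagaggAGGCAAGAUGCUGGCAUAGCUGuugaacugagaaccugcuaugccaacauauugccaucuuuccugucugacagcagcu
Mir21a: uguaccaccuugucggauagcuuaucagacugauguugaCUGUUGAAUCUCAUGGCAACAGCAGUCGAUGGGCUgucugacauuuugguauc
Mirlet7a-1: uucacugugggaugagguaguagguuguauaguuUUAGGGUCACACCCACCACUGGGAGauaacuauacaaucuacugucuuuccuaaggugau
The Mir27a bin (chr8:84208701-84208800, 57 names) had 37 reads in set 1 DKO, 142 in set 1 control, 132 in set 2 DKO, 68 in induced and 116 in uninduced cells. Its capitals are miR-27a-3p, and miR-183-5p gave 91 of the 316 set 2 reads, miR-125b-5p 44 and the gene's own miRNAs 37. In the Mir31 bin (chr4:88910601-88910700, 54 names) the capitals are miR-31-5p, and miR-467a-5p gave 53 and the own miRNAs 83 of 314 reads. The Mir23a bin held 55 names over miR-23a-3p. In Mir21a (chr11:86584101-86584200, 44 names) own reads were 966 of 1106 (87.3%), and in Mirlet7a-1 154 of 171 (90.1%). There the capitals begin where miR-21a-5p and let-7a-5p end. Over all 42 bins, 2036 of 2651 reads of the genes' own 5p miRNAs (76.8%) had a target part that began within 1 base of the base after that miRNA's end. In those reads both parts together are a continuous stretch of the hairpin. The 42 bins entered the count of members like all others, and without miRNA genes and small structured RNAs 1624 members were left.

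**Figure D4:**
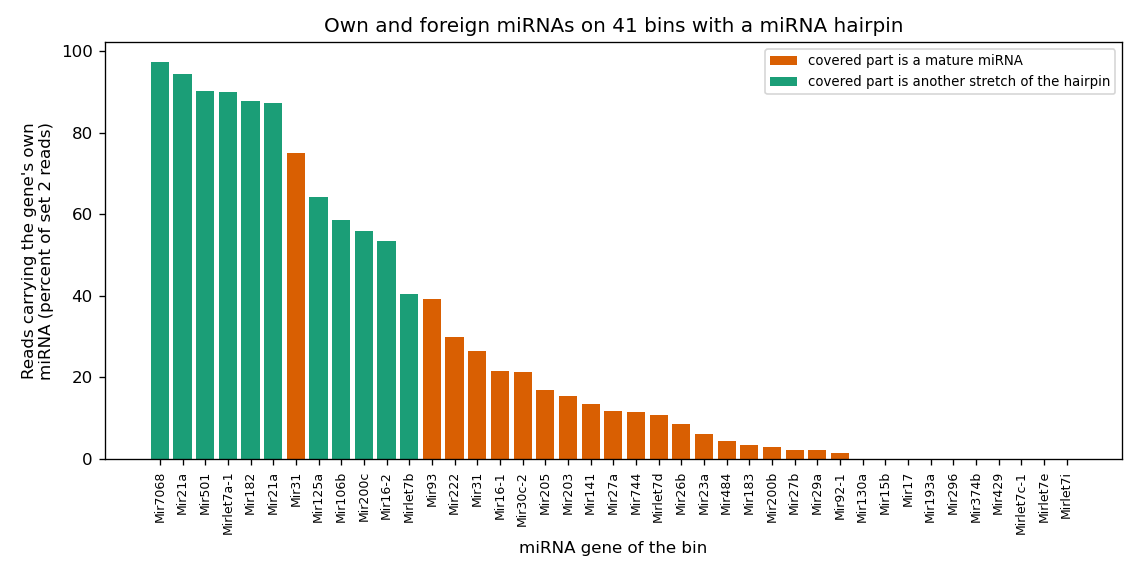
Percent of the set 2 reads of a bin in which the ligated miRNA came from the gene the bin lies in (bars), for the 41 bins that could be classed, in falling order. Orange bars are the 30 bins whose covered part is a mature miRNA and green bars the other 11; most green bars are above 50% and most orange bars below 30%. Green bars can still take in a mature miRNA, as Mir200c does with miR-200c-3p, in separate stretches, and Mirlet7b with let-7b-5p.

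Small structured RNAs held 41 members. The leading ones were Rny3, a Y RNA (49 names, led by the miR-30 family with 31.3%), LOC115487678, which lies within the gene Gas5 (48 names, led by miR-31-5p with 24.2%), and Rn7sk, the 7SK RNA that restrains transcription elongation (40 names, led by miR-378a-3p with 14%). The leading pseudogene bins were in Vmn2r-ps23 (26 names), Gm6977 (19 names, 75.9% from the miR-23 family) and Txn-ps1 (14 names).

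Set 1 gave a view of the same bins in reads that had not chosen them. A read was found in 920 of the 1715 bins in set 1 DKO (53.6%) and in 1386 in set 1 control (80.8%). Of non-member bins with 20 or more set 2 reads, 42.9% had a set 1 DKO read and 73.4% a set 1 control read, and of all bins 2.96% and 7.76%. The members held 12.7% of the set 1 DKO reads (12.4 to 13) and 10.2% of the set 1 control reads (10.1 to 10.4). In set 2 they held 10.8% in DKO, 11.8% in induced and 12.6% in uninduced cells. The set 1 shares rested in part on 10 bins led by miR-709, which held 4.01% of the set 1 DKO and 3.13% of the set 1 control reads but 0.347, 0.317 and 0.328% of the set 2 DKO, induced and uninduced reads. Without these 10 the shares were 8.72% in set 1 DKO and 7.09% in set 1 control. Of the reads in members, 32.5% in set 1 DKO and 12.2% in set 1 control had the same position, strand, miRNA and barcode as a read of the other pool of that lane. Of the reads outside members these were 15.2% in set 1 DKO and 4.45% in set 1 control.

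The leading family was mostly the same in set 1. Of 229 members with 10 or more set 1 control reads, 175 (76.4%) had the set 2 leader in first place, and in set 1 DKO it was 70 of 93 (75.3%). Where the leader had 50% or more in set 2 the count was 58 of 65 in set 1 DKO and 129 of 139 in set 1 control. Where it had less, the count was 12 of 28 and 46 of 90. The bin of Ccn2 at chr10:24598301-24598400, in a gene for a secreted matrix-associated growth regulator, was led by let-7 in set 2 (31.6%) and by the miR-30 family in set 1 control (83.4% of 157 reads). The bin of Lpar6, a receptor gene, was led by miR-21a-5p in set 2 (51.7%) and by the miR-27 family in set 1 control (82.4% of 34).

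The share of a family's set 1 reads that fell in the members differed widely between the 39 families with the most such reads in set 1 control. In set 1 control its median was 13.7%, against 10.7% over all reads outside the regions left out. For miR-690, which led 3 bins, it was 65.4% in set 1 DKO (59.4 to 71.1) and 61.3% in set 1 control (58.2 to 64.4), beside 32.7% in set 2 uninduced cells. For the miR-92a family it was 38.7% in set 1 DKO (33.8 to 43.8), 32.6% in set 1 control (29.6 to 35.6) and 24.2% in uninduced cells. Its member reads numbered 149 in set 1 DKO and 319 in set 1 control. The Atp7a bin, led by this family in set 2, alone held 59 and 161 reads of all miRNAs. For miR-30 the share was 16.2% in set 1 DKO (13.5 to 19.1), 25.3% in set 1 control (23.4 to 27.3) and 19.4% in uninduced cells, so that here the set 1 DKO share was the lower of both set 1 shares. The Ccn2 bin at chr10:24598301-24598400 gave 24 of the 115 miR-30 member reads in set 1 DKO and 131 of the 492 in set 1 control. For miR-17 the shares were 26.5% in set 1 DKO (24.3 to 28.9), 25.1% in set 1 control (23.7 to 26.6) and 21.9% in uninduced cells. At the low end, miR-205-5p had 8.74% in set 1 DKO (7.43 to 10.2), 8.21% in set 1 control (7.39 to 9.1) and 10.7% in uninduced cells. The lowest set 1 control share was that of miR-7667-5p, with 0% in set 1 DKO (up to 0.661), 0.0259% in set 1 control and 0.815% in uninduced cells.

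The comparisons of knockout and induction asked how the load of these bins moved with miR-200. A bin was compared where both pools together held 20 or more reads, and the ratio is that of the bin's shares of all reads in the pools. In set 2 DKO over uninduced, 84 of 842 members (9.98%) were at least 2-fold higher, against 11.2% of all bins compared, and 218 (25.9%) at least 2-fold lower, against 31.4%. The median ratio was 0.805 in members and 0.748 in all bins compared. In induced over uninduced, 78 of 1169 (6.67%) were at least 2-fold higher, against 6.85% of all, and 65 (5.56%) lower, against 6.38%. In set 1 DKO over control, 27 of 141 (19.1%) were at least 2-fold higher, against 8.32% of all, and 18 (12.8%) lower, against 31.6%, with median ratios of 1.2 and 0.778. The all-bin shares include the members, and since members are chosen for many names, nothing particular to them is drawn from the set 2 shares. The set 1 shares were not matched for miRNA make-up. Only 0.0423% of the 16552 set 1 control reads of the miR-3470b family fell in members, and 0.129% of the 7762 of miR-706. Of the set 1 DKO reads in members, 32.5% had the same position, miRNA and barcode as a control read. What these add to the set 1 contrast was not tested.

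The knocked-out family itself was nearly absent from the members in DKO cells. Its 5 names made up 0.178% of member reads in set 1 DKO (0.0887 to 0.318) against 3.59% in set 1 control (3.31 to 3.89). In set 2 the share was 0.444% in DKO (0.362 to 0.539) and 8.79% in induced (8.54 to 9.04), against 6.57% in uninduced cells (6.33 to 6.82). At least 1 miR-200 read was in 11 members in set 1 DKO against 252 in set 1 control, and in 80 in set 2 DKO and 843 in induced against 686 in uninduced cells. Outside the members the shares were 0.152, 3.16, 0.374, 9.87 and 7.3% in the same order as above.

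Members were then split by the share of miR-200 in the induced pool, whose reads are in neither DKO comparison but helped to choose the bins. In 76 bins it was 50% or more, and all reads of these bins had a ratio of 0.32 in set 2 DKO over uninduced (0.283 to 0.361) and 0.398 in set 1 DKO over control (0.288 to 0.54). Counting only reads of other miRNAs, over the pools' totals of other miRNAs, these bins stood at 0.663 in set 2 (0.573 to 0.765) and 0.801 in set 1 (0.565 to 1.12). In the 177 bins with 20 to 50% the ratio for other miRNAs was 1.1 in set 2 (1.03 to 1.18) and 1.15 in set 1 (0.969 to 1.35). In the 1459 bins with less it was 0.846 in set 2 (0.832 to 0.861) and 1.26 in set 1 (1.22 to 1.3). The set 2 reads also chose the bins as members, so the set 2 values are a description. For the 76 bins the set 1 interval for other miRNAs included 1. The leading bin of the 76 was in Vldlr, a lipoprotein receptor gene (chr19:27249301-27249400). It had 1 read in set 1 DKO, 50 in set 1 control, 8 in set 2 DKO, 132 in induced and 55 in uninduced cells, of which 1, 45, 2, 121 and 50 were miR-200 reads. In Gars, the gene of glycyl-tRNA synthetase, miR-200 gave 2 of 7 reads in set 2 DKO and 113 of 149 in induced, against 41 of 76 in uninduced cells. In Anxa1, an annexin gene, reads of other miRNAs numbered 36 in set 2 DKO and 38 in induced, against 29 in uninduced cells, while miR-200 reads numbered 1, 73 and 42.

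The largest ratios of set 2 DKO over uninduced were led by Xist. Its bin (chrX:103465801-103465900, 15 names, mostly let-7) had 38 reads in DKO and 0 in induced, against 1 in uninduced cells, and 0 in both set 1 pools. A ratio to 1 read is loosely bounded, at 56.8 (9.6 to 2300). At the other end, named after its values were seen, a bin of the Y-linked Ddx3y had 1 read in DKO and 57 in induced, against 31 in uninduced cells. A bin of Ccn2 (chr10:24598401-24598500) had 46 reads in DKO and 4 in induced, against 2 in uninduced cells (ratio 34.4, 9 to 293), and 9 in set 1 DKO against 18 in set 1 control. The Xist and Ccn2 bins had fewer than 10 set 2 reads outside DKO, so they could be members only through the DKO reads. Their high ratios are thus in part set by the choice of bins. The bin over let-7c in Mirlet7c-1 had 42 and 8, against 3 (ratio 20.9, 6.69 to 106), with miR-30c-5p as the main partner. On the lower side 3 bins had no DKO read. Mir200c had 0 in DKO and 24 in induced, against 28 in uninduced cells, and was at least 6.24-fold lower by a floor of 3 reads for the count of 0. The counting interval of its ratio reached up to 0.211, a smaller difference than this floor gives. Sik1, encoding a salt-inducible kinase (chr17:31845001-31845100), had 0 and 28, against 25 (at least 5.57-fold lower by the floor, interval up to 0.238), with miR-200c-3p in first place among the uninduced reads. Mir429 had 0 and 20, against 20 (at least 4.46-fold lower by the floor, interval up to 0.303). Mir200c and Mir429 are genes of the deleted family.

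With induction, the highest ratios were in Rpl14, a ribosomal protein gene, with 21 reads in induced against 2 in uninduced cells (7.87, 1.92 to 69.2), in a Vldlr bin with 30 against 3 (7.49, 2.33 to 38.4), 16 of the 30 from miR-200c-3p, and in Calm2, a calmodulin gene, with 18 against 2 (6.74, 1.61 to 59.9). The lowest were in Maml3, a gene of a Notch coactivator, with 10 reads in induced against 39 in uninduced cells (0.192, 0.0855 to 0.392), the Y RNA gene Rny1 with 9 against 24 (0.281, 0.115 to 0.626) and Mia2 with 6 against 16 (0.281, 0.0901 to 0.756).

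In set 1, a bin outside annotated genes (chr18:73533401-73533500, 66 names) had 117 reads in DKO against 14 in control (27.8, 15.9 to 52.4), 45 of the 117 from miR-467c-5p. The same bin had 54 reads in set 2 DKO and 101 in induced, against 111 in uninduced cells. A Cldn4 bin (chr5:134945701-134945800) had 19 against 13 (4.86, 2.28 to 10.7) and Rny3 24 against 17 (4.69, 2.42 to 9.3). On the lower side the Ahnak bin led by the miR-200c family (chr19:9018501-9018600) had 0 against 26 and was at least 2.61-fold lower by the floor, with an interval of the ratio up to 0.507. The leading Vldlr bin had a ratio of 0.0665 (0.00165 to 0.388), and Mir429 had 1 against 24 (0.138, 0.00337 to 0.849).

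Both DKO comparisons could be made for 137 members. By intervals that excluded 1, 3 were higher in DKO in both sets and 5 lower in both, while 7 were higher in set 1 and lower in set 2 and 6 the reverse. These are 2.19, 3.65, 5.11 and 4.38% of the 137. Of all 222 bins that could be compared in both sets, members included, 7 were higher in both, 7 lower in both, 12 higher in set 1 and lower in set 2 and 13 the reverse, which are 3.15, 3.15, 5.41 and 5.86%. The 3 members higher in both were a bin opposite to the noncoding Gm34755 and led by miR-709, the Scd2 bin at chr19:44306401-44306500 and the leading Krt14 bin. Scd2 had 57 reads in set 1 DKO against 127 in set 1 control (1.49, 1.07 to 2.05) and 291 in set 2 DKO against 200 in uninduced cells (2.18, 1.81 to 2.62), mostly from the miR-27 family. Krt14 had 12 against 16 (2.49, 1.08 to 5.61) and 107 against 78 (2.05, 1.52 to 2.78). The 5 lower in both were the Vldlr and Ahnak bins led by miR-200, Mir429, a miR-709 bin opposite to LOC115490435 and Sparc, a gene of a secreted matrix protein. Sparc, where miR-29 gave 95.7% of the reads, had 8 in set 1 DKO against 59 in set 1 control (0.451, 0.186 to 0.947). In set 2 it had 18 in DKO and 615 in induced, against 434 in uninduced cells (DKO ratio 0.062, 0.0364 to 0.0992). Less target RNA, fewer miRNA molecules and less binding cannot be told apart in such ratios.

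**Figure D5:**
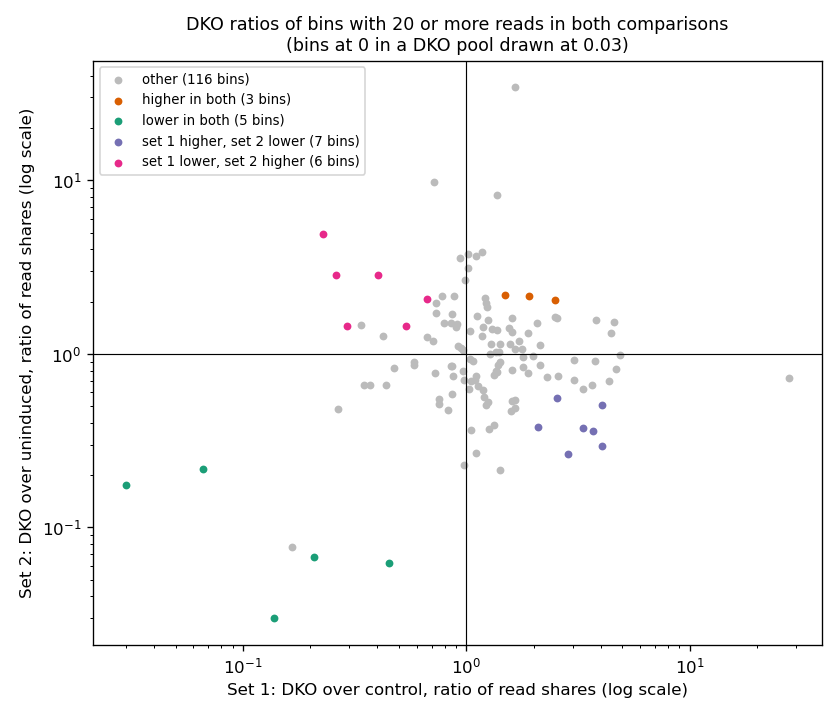
Ratio of read shares in set 1 DKO over control (horizontal, log scale) against set 2 DKO over uninduced (vertical, log scale) for the 137 bins with 20 or more reads in both comparisons. Colours mark bins whose counting intervals exclude 1 in both sets; 3 are higher and 5 lower in both, 7 are higher in set 1 and lower in set 2, 6 are the reverse, and the rest are grey.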

How the data were processed

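CLEAR-CLIP reads of 18 libraries in 5 pools were analysed. Each row of the deposited tables is 1 chimeric read with the position and strand of its target part in mm10, a barcode and a miRNA name, so the authors' other columns hold positions and no score of binding. The submitters' processing notes name cutadapt, Novoalign and bedtools, with versions not given in the sources used here. Cells were irradiated with 300 mJ/cm2 at 254 nm, per the labels' protocols.

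Reads were counted in 100-base bins by target midpoint with Python 3.11.15, pandas 2.3.3 and scipy 1.17.1, and drawn with matplotlib 3.10.9. Names were grouped by seed (bases 2 to 8) from RefSeq. Genes are spans of the RefSeq GRCm38.p6 table. Intervals are exact 95% intervals, Clopper-Pearson for shares and conditional binomial for ratios of shares, and cover counting error only, since amplified reads are not independent molecules. The bins and gene lists were chosen with earlier results of these data known. Named were the 15 bins with most names (1 is not reported here), the 10 genes with most bins, the 3 most extreme bins per comparison and direction, the 3 leading bins of each other class, up to 4 genes per list, and the 15 names and 10 families in most bins. Other examples were chosen after their values were seen: Plet1, Ddx3y, the bins led by miR-709, the bins led by 1 family, the pairs, the miR-200 bins and those that changed leader. The binning was tested on simulated reads.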

Additional observations from a re-analysis of the deposited data

Results flagged for a closer look

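In 8 bins the DKO ratio lay at least 2-fold above 1 in one set and at least 2-fold below 1 in the other, with counting intervals that excluded 1. The difference between the sets was not tested, and the sets also differ in the control cells and the sequencing lane. Opposite directions were no more frequent in members than in all bins compared in both sets. By intervals alone they made up 5.11 and 4.38% of the 137 members, against 5.41 and 5.86% of the 222 bins. 5 bins were higher in DKO in set 1 and lower in set 2. A bin outside annotated genes (chr17:81838401-81838500, 76 names) had ratios of 2.86 in set 1 and 0.263 in set 2. Sik1 (chr17:31849601-31849700, led by let-7) had 2.09 and 0.379. Snx5, a sorting nexin gene, had 4.06 (11 reads in DKO against 9 in control) and 0.293. Thbd (chr2:148405101-148405200), encoding thrombomodulin, had 3.32 (12 reads in DKO against 12 in control) and 0.374. Sprr1b, a gene of the cornified envelope led by miR-31-5p, had 3.69 and 0.358. 3 bins were lower in set 1 and higher in set 2. Igfbp3, encoding a binding protein of insulin-like growth factors, had 0.26 in set 1 and 2.86 in set 2. The miRNA genes Mirlet7b and Mir27b had 0.402 and 2.83, and 0.229 and 4.9. The set 1 ratio of Mir27b came from 2 reads in DKO against 29 in control (interval 0.0265 to 0.906).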

How the results depend on the processing

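Of 137 values from alternative settings of 11 results, 74 stayed within their limits (1.5 times for counts, the counting interval for shares) and 63 moved. Shares of set 1 reads in members are given below with DKO first (12.7% and 10.2% as reported). They were 8.77% and 6.54% with positions counted once, 10.3% and 9.38% without reads shared within a lane, 14% and 10.6% with bins shifted by 50 bases, and 11.2% and 9.15% by seed families. They were 11.9% and 10.9% without 7 names overrepresented in set 1, and 11.8% and 9.05% without small structured RNA and miRNA genes. Without the bins led by miR-709, a choice made after seeing the data, they were 8.72% and 7.09%. With positions counted once, 9 members were lower in set 1 DKO, and by seed families 48 were higher in induced cells. With 2 or more reads per name, 334 bins were left, 249 with a set 1 DKO read and 317 with a set 1 control read (3.91% and 3.17% of reads). Higher and lower counts were then 22 and 67 in set 2 DKO, 9 and 15 in induced cells and 13 and 8 in set 1 DKO. A threshold of 8 names gave 2859 bins, 2095 with a set 1 control read (15% and 11.9% of reads). A threshold of 15 gave 701, with 436 and 639 read in set 1 (5.66% and 4.92%), and counts of 44 and 123, 33 and 35, and 16 and 11 in the same order. A count minimum of 10 gave 178 and 404, 142 and 127, and 95 and 65, and one of 50 gave 29 and 67, 16 and 10, and 4 and 7. At 1.5-fold there were 149 and 337 in set 2 DKO, 166 and 218 in induced cells, and 46 higher in set 1 DKO. Requiring the interval to exclude 1 left 42 and 42 in induced cells. Without the induced pool 846 bins reached 10 names, without the uninduced pool 1074 and without the set 2 DKO pool 1252, which is within its limit. The causes were not tested, beyond fewer or more reads and bins by construction. Leaving out a replicate could not be run, since the reads carry no library name. No paired analysis was possible because the libraries of each group are pooled in 1 file.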
